A study of Homo sapiens with 16 samples.

Results

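This account covers 35 genes in multiple myeloma cells in which KANSL2 was repressed. They belong to homologous recombination, the Fanconi anaemia pathway and the DNA damage checkpoint, except MSH6, a mismatch repair gene. The 35 were taken by symbol and not by a threshold on their values, but with earlier results of these data known. All of them were present and tested in both lines, out of 12511 genes tested in INA6 and 12282 in JJN3. INA6 and JJN3 are established human myeloma lines, that is, malignant plasma cells grown in culture. KANSL2 belongs to the NSL complex, a chromatin complex built around the histone acetyltransferase KAT8. It was repressed by CRISPR interference, which sends a nuclease-dead Cas9 with a repressor domain to the gene, and control cells of the same line carried a non-targeting guide. Each line was sequenced as 3 KANSL2 knockdown and 3 non-targeting poly(A) RNA libraries, and all of these cells are labelled untreated. The number of guides, the time after guide delivery, and whether each line was a clone are not given in the sources used here. Nor do the labels say whether the 3 libraries of an arm came from separate cultures, and the p-values reflect just how these libraries vary, which could be technical variation.

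Homologous recombination repairs broken DNA by copying an intact sister chromatid. The MRN complex of MRE11, RAD50 and NBN senses the broken end, RBBP8 (CtIP) and EXO1 resect it, and BRCA2, brought by BRCA1 and PALB2, prepares the resected strand for the search for its intact copy, together with the BCDX2 and CX3 complexes. RAD54 translocases then drive strand invasion, and the BLM complex dissolves joined intermediates. The Fanconi core complex attaches ubiquitin to FANCD2 and FANCI at crosslinked DNA, which brings in the same recombination machinery, and the kinases ATM, ATR, CHEK1 and CHEK2 pause the cell cycle. Many of these genes are transcribed most in S phase, under E2F factors, and defects in them sensitise cells to crosslinking agents and PARP inhibitors.

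Values are the deposited rlog values, a log2-scale expression level in which DESeq2 scales libraries to each other and shrinks genes with few reads, so that a difference understates the change of a weakly expressed gene. A difference is knockdown minus control, a percentage of control is 2 to the power of that difference, and a gene was called where limma's adjusted p was below 0.05. KANSL2 (chr12:48653211-48682238, hg38) stood at 8.06, 8.02 and 8.16 in the INA6 controls and at 7.71, 7.60 and 7.76 in the INA6 knockdown. In JJN3 it stood at 7.25, 7.24 and 7.19 in the controls and at 6.00, 5.98 and 6.06 in the knockdown. The arms did not overlap in either line, with KANSL2 at 76.4% of control in INA6 (adjusted p = 3.06e-05) and 43.1% in JJN3 (adjusted p = 1.48e-16). The fall was thus 0.82 deeper on the log2 scale in JJN3 (adjusted p of the difference between lines = 2.11e-11), and any difference between the lines below carries that difference in knockdown with it. Plasma cell markers were present as labelled, 11 of 12 reaching a mean of 3 in each line, while 0 of 8 stromal markers and 1 of 8 myeloid markers did. Of 8 T and NK cell markers 3 reached it in INA6 and 1 in JJN3, and of 7 B cell markers 3 and 4 did. In INA6 the B cell markers CD79B, PAX5 and BANK1 had means of 10.9, 7.65 and 3.46, with MS4A1 listed at 0. In JJN3 CD79B, MS4A1, BANK1 and CD79A had means of 8.28, 6.17, 5.28 and 3.79. The summed level of the plasma cell markers lay between 132690 and 134648 in the INA6 controls and between 93972 and 105533 in the knockdown, and between 102585 and 105215 in the JJN3 controls and 114620 and 118199 in the knockdown. Their part in the results below was not tested. In bulk RNA a lower value because fewer cells were in a given state and a lower value because each cell held less RNA cannot be told apart.

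The 35 genes moved in a divided way. In INA6 11 rose and 3 fell (14 of 35, 40.0%), beside 48.6% of all genes called. In JJN3 12 rose and 7 fell (19 of 35, 54.3%), beside 51.0% of all genes. The share that rose was 31.4% in INA6, against 24.7% of all genes, and 34.3% in JJN3, against 25.5%. The share that fell was 8.57% in INA6, against 24.0% of all genes, and 20.0% in JJN3, against 25.5%. The share called was thus near the background in JJN3 and below it in INA6. Without INA6 control library 1 the count that fell there was 1 (RMI2) in place of 3. Knockdown and control libraries did not overlap for 15 of the 35 in INA6 (12 above, 3 below), beside 55.2% of all genes (27.7% above, 27.4% below). In JJN3 they did not overlap for 24 (15 above, 9 below), beside 56.1% of all genes (28.4% above, 27.7% below). The median change of the 35 was 0.07 in each line, beside 0.00 for all genes, and 22 of 35 changes were positive in INA6 and 23 of 35 in JJN3. Centring each library on its median moved the split of all calls in INA6 from 50.7% to 61.9% higher and in JJN3 from 50.0% to 59.4%. Under it 15 members were higher and 2 lower in INA6, and 13 higher and 6 lower in JJN3. No called member turned direction under that or any other setting tried.

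**Figure D1:**
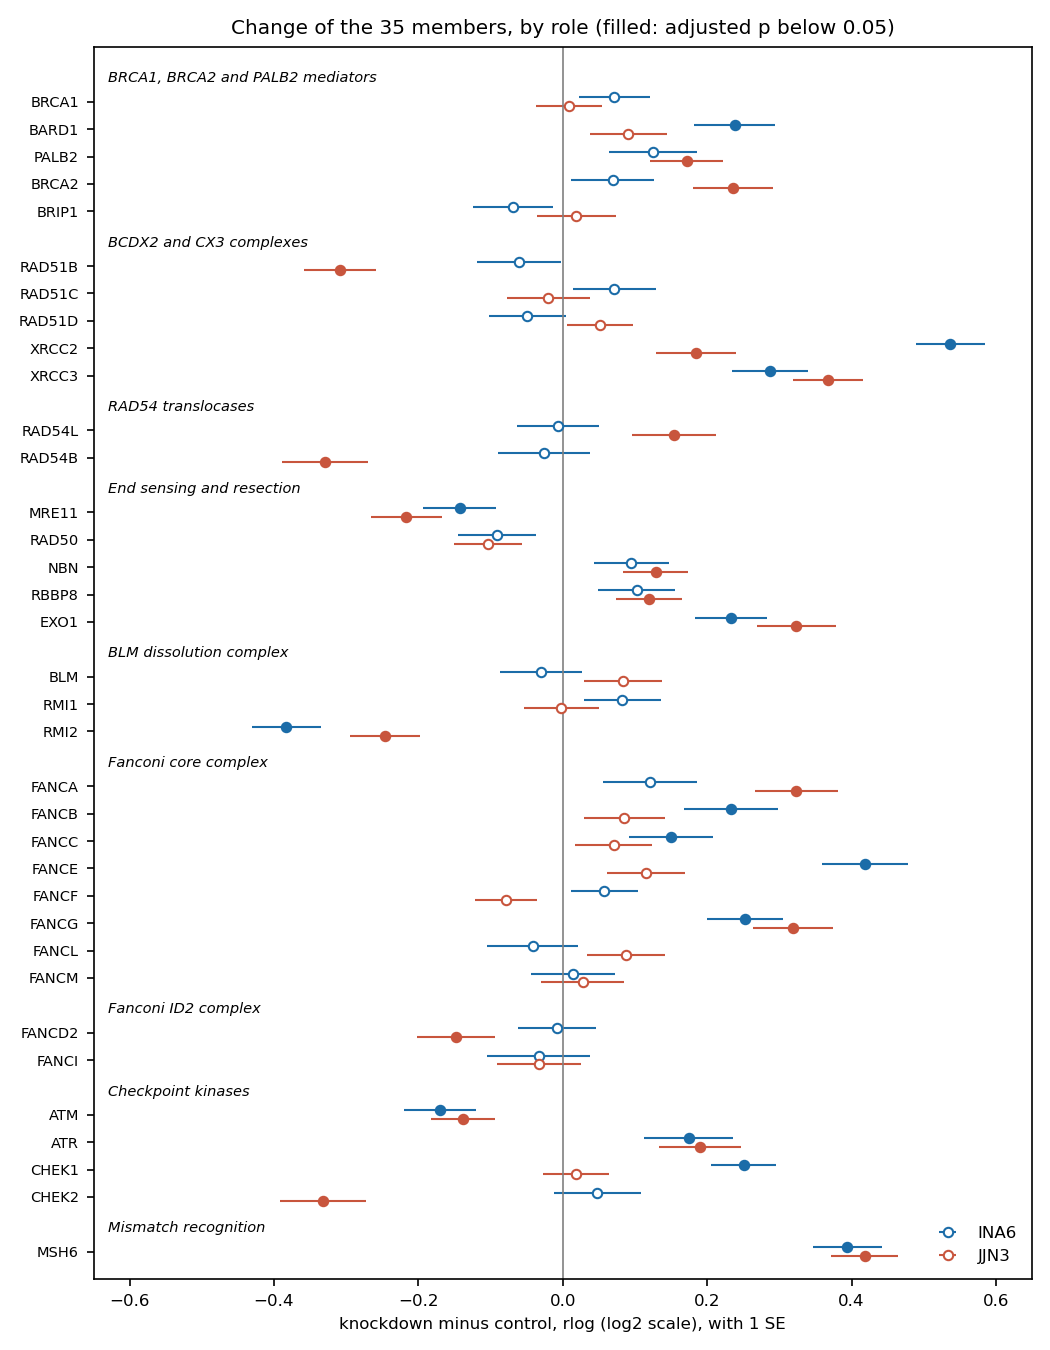
Knockdown minus control difference of each of the 35 genes (x axis, rlog on the log2 scale, bars 1 SE, n = 3 per arm) in INA6 (blue) and JJN3 (red), arranged by role; filled circles were called. MSH6, XRCC2, XRCC3, EXO1 and FANCG lie to the right in both lines and RMI2, MRE11 and ATM to the left, while RAD51B, RAD54B and CHEK2 were called lower in JJN3 and not in INA6.

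In both lines 6 genes rose (XRCC2, XRCC3, EXO1, FANCG, ATR and MSH6, 17.1% of the 35, beside 14.2% of the genes tested in both) and 3 fell (MRE11, RMI2 and ATM, 8.57%, beside 12.3%). None moved in opposite directions, which 3.91% of all genes did. A further 5 were called higher in INA6 and not in JJN3 (BARD1, FANCB, FANCC, FANCE and CHEK1), and 6 higher in JJN3 and not in INA6 (PALB2, BRCA2, RAD54L, NBN, RBBP8 and FANCA). RAD51B, RAD54B, FANCD2 and CHEK2 were called lower in JJN3 and not in INA6. These groups were 14.3%, 17.1% and 11.4% of the 35, and the matching shares of all genes were not counted. A call in a single line is no test of a difference between lines. By that test 17.1% of the 35 differed, beside 30.0% of all genes tested in both lines. The remaining 11 genes (31.4% of the 35) were called in neither line: BRCA1, BRIP1, RAD51C, RAD51D, RAD50, BLM, RMI1, FANCF, FANCL, FANCM and FANCI. Among genes tested in both lines that have a listed promoter, 2451 of 8742 were called in neither.

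The promoter sequences below are examples and not a full set. XRCC2, EXO1 and MSH6 rose in both lines and hold an E2F word in the listed window shown. EXO1 has 2 listed windows and MSH6 has 4, and their other windows hold no E2F word. MRE11 and ATM fell in both, and FANCD2 holds an E2F word yet fell in JJN3. XRCC3, FANCG and ATR also rose in both lines, but their listed promoters hold no E2F word and are not shown. The sequences shown thus cannot tell how common the word is among genes that rose or fell. They were chosen after the values were seen. Each runs 5′ to 3′ on the gene's own strand, from 120 bases before to 30 bases after a RefSeq start (GRCh38.p14, the same build as hg38), with E2F words (TTTCCCGC, TTTGGCGC, TTTCGCGC or TTTGCCGC, either strand) and CCAAT boxes (CCAAT or ATTGG) in capitals.
XRCC2 (chr7:152676112-152676261, minus strand): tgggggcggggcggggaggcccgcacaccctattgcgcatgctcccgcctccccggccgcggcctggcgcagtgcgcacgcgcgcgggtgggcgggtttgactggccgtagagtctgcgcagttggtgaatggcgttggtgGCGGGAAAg
EXO1 (chr1:241848084-241848233, plus strand): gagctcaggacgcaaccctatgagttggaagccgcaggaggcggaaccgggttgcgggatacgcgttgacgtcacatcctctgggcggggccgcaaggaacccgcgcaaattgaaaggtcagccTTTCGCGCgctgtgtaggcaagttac
MSH6 (chr2:47783025-47783174, plus strand): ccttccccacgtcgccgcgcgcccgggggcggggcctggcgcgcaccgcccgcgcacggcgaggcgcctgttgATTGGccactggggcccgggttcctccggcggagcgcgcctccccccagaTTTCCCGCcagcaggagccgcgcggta
FANCD2 (chr3:10026317-10026466, plus strand): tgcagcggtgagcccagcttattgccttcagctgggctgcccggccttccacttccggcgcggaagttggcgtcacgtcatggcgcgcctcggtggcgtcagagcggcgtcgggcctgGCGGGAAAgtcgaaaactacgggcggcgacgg
MRE11 (chr11:94493815-94493964, minus strand): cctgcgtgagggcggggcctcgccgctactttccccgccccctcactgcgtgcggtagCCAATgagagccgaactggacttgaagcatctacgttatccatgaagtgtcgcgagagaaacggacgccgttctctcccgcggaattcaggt
ATM (chr11:108222947-108223096, plus strand): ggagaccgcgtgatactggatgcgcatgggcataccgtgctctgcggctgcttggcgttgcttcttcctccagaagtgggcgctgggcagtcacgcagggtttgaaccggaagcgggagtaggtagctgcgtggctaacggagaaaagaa
In XRCC2, EXO1, MSH6 and FANCD2 the E2F word lies within 30 bases of the start, on one side or the other. MRE11 has a CCAAT box and no E2F word. ATM has neither in the stretch shown. A CCAAT box lies further upstream in the first of its 2 listed windows. The second window holds CCAAT boxes 56 bases before and 38 bases after its own start, beyond the stretch shown.

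RefSeq's promoter table, which lists 250 bases before to 50 after each start, held 46 windows for 31 of the 35 genes (RMI2, NBN, FANCI and RAD54B were not matched). An E2F word was present in 7 of the 46 windows (15.2%), in XRCC2, EXO1, MSH6, FANCD2, FANCA, FANCC and RMI1, beside 3.31% of 35116 windows of all genes and 5.22% of 12628 windows of genes tested in both lines. The median share of G and C was 64.5% in the member windows, 58.7% in all windows and 65.0% in those of genes tested in both lines. Of the 10 windows of the genes that rose in both lines 3 held the word, and of the 3 windows of the genes that fell in both 0 did. A CCAAT box was present in 19 of 46 member windows (41.3%), beside 34.6% of all windows and 35.2% of those of tested genes, and in all 3 windows of MRE11 and ATM. Among the windows of all genes tested in both lines, 7.45% of those of genes that rose in both held an E2F word, 4.32% of those of genes that fell in both, and 5.24% of those of genes called in neither. A match is a stretch of letters and no measure of binding.

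Among the mediators that act on the resected end, BRCA1 did not pass the test, and its partner BARD1 and the PALB2 and BRCA2 pair were each called higher in 1 line. BRCA2 (chr13:32315077-32400268), a tumour suppressor of hereditary breast and ovarian cancer, stood at 7.38, 7.36 and 7.38 in the JJN3 controls and at 7.63, 7.65 and 7.54 in the JJN3 knockdown. All 3 knockdown libraries lay above all controls, a rise of 0.24 (SE 0.0548, 118% of control, adjusted p = 0.000645). In INA6 BRCA2 stood at 8.11, 8.10 and 8.12 in the controls and 8.20, 8.24 and 8.10 in the knockdown, overlapping, with a difference of 0.07 (adjusted p = 0.334). PALB2, which links BRCA1 to BRCA2, rose by 0.17 in JJN3 (SE 0.0503, adjusted p = 0.00528), and its INA6 difference was 0.12 (adjusted p = 0.0978), called after median centring (0.16, adjusted p = 0.0333) and without knockdown library 3 (0.20, adjusted p = 0.00778). BARD1, the obligate partner of BRCA1 in its ubiquitin ligase, rose by 0.24 in INA6 (SE 0.0561, adjusted p = 0.0014), where its controls lay between 9.31 and 9.40 and its knockdown libraries between 9.48 and 9.71. In JJN3 its difference was 0.09 (adjusted p = 0.152, and 0.13 with adjusted p = 0.0468 after quantile normalisation). BRCA1 differed by 0.07 in INA6 (adjusted p = 0.24) and 0.01 in JJN3 (adjusted p = 0.892), and the helicase BRIP1, which binds BRCA1, by −0.07 (adjusted p = 0.319) and 0.02 (adjusted p = 0.797). The arms of both genes overlapped in each line.

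The BCDX2 complex holds RAD51B, RAD51C, RAD51D and XRCC2 and the CX3 complex RAD51C and XRCC3, and both support strand exchange in homologous recombination. XRCC2 and XRCC3 rose in both lines, RAD51C and RAD51D did not pass the test in either, and RAD51B fell in JJN3. XRCC2 (chr7:152644776-152676141) stood at 9.80, 9.77 and 9.89 in the INA6 controls and at 10.35, 10.39 and 10.32 in the knockdown. The arms were well apart, a rise of 0.54 (SE 0.0478, 145% of control, adjusted p = 1.58e-08), the largest among the 35 genes in INA6. In JJN3 XRCC2 stood at 8.87, 9.01 and 8.97 in the controls and 9.28, 9.07 and 9.05 in the knockdown. Only knockdown library 1 was far above the controls, and the rise of 0.18 (SE 0.0548, adjusted p = 0.00578) became 0.11 without that library (adjusted p = 0.07). XRCC3 (chr14:103697617-103715451) stood at 10.31, 10.31 and 10.19 in the INA6 controls and 10.45, 10.59 and 10.63 in the knockdown, and at 8.67, 8.63 and 8.58 in the JJN3 controls and 8.96, 8.99 and 9.03 in the knockdown. No arms overlapped, with rises of 0.29 in INA6 (SE 0.0525, 122%, adjusted p = 0.000125) and 0.37 in JJN3 (SE 0.0481, 129%, adjusted p = 2.24e-07).

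RAD51B (chr14:67819779-68683096), which had the lowest rlog values of the 35 in both tables (a scale not corrected for gene length), stood at 4.82, 4.78 and 4.98 in the JJN3 controls and at 4.52, 4.56 and 4.58 in the knockdown. The arms did not overlap, a fall of 0.31 to 80.8% of control (SE 0.0502, adjusted p = 7.15e-06). In INA6 it stood at 5.16, 4.99 and 5.04 in the controls and 5.01, 4.97 and 5.04 in the knockdown, with overlap and a difference of −0.06 (adjusted p = 0.409). RAD51C differed by 0.07 (adjusted p = 0.32) in INA6 and −0.02 (adjusted p = 0.792) in JJN3, and RAD51D by −0.05 (adjusted p = 0.472) and 0.05 (adjusted p = 0.363). Within the complex that holds RAD51B, RAD51C, RAD51D and XRCC2, JJN3 had 1 subunit lower, 1 higher and 2 not called. That is near the background, as 25.5% of all genes were called lower there and 25.5% higher.

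The RAD54 translocases, motor proteins that drive strand exchange, parted in JJN3. RAD54B (chr8:94371960-94475115) stood at 7.43, 7.43 and 7.56 in the JJN3 controls and at 7.24, 7.05 and 7.13 in the knockdown, a fall of 0.33 without overlap to 79.6% of control (SE 0.0598, adjusted p = 3.34e-05). RAD54L rose by 0.15 in JJN3 (SE 0.0581, adjusted p = 0.028), a call that was lost without control 1, control 3 or knockdown 1 (adjusted p = 0.0888, 0.127 and 0.118). In INA6 RAD54B stood at 7.10, 6.98 and 7.08 in the controls and 7.08, 6.96 and 7.04 in the knockdown. There the arms overlapped for both genes, with differences of −0.03 for RAD54B (adjusted p = 0.763) and −0.01 for RAD54L (adjusted p = 0.936).

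At the first step of repair, the exonuclease EXO1 rose in both lines and the MRE11 nuclease fell. EXO1 (chr1:241847986-241889939), which resects long stretches of DNA, stood at 9.19, 9.16 and 9.23 in the INA6 controls and 9.49, 9.41 and 9.38 in the knockdown. In JJN3 it stood at 7.35, 7.26 and 7.31 in the controls and 7.62, 7.62 and 7.65 in the knockdown. The arms did not overlap in either line, with rises of 0.23 (SE 0.0504, 118%, adjusted p = 0.000655) and 0.32 (SE 0.0544, 125%, adjusted p = 1.16e-05). MRE11 (chr11:94415570-94512412), the nuclease that opens the end, stood at 9.76, 9.75 and 9.71 in the INA6 controls and 9.69, 9.56 and 9.54 in the knockdown. In JJN3 it stood at 8.86, 8.85 and 8.76 in the controls and 8.60, 8.57 and 8.66 in the knockdown. Arms were apart in both lines, a fall of 0.22 in JJN3 to 86.1% of control (SE 0.0494, adjusted p = 0.000525) and a smaller fall of 0.14 in INA6 to 90.6% (SE 0.0505, adjusted p = 0.0238). The INA6 call was lost after median centring (−0.11, adjusted p = 0.0881) and without control 1, control 2, knockdown 2 or knockdown 3 (adjusted p = 0.0825, 0.0778, 0.103 and 0.0767).

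The other MRN subunits did not follow MRE11 in a single direction. RAD50, the ATPase that tethers ends, differed by −0.09 in INA6 (adjusted p = 0.168) and −0.10 in JJN3 (adjusted p = 0.0672), and in JJN3 it was called lower after quantile normalisation (−0.13, adjusted p = 0.0308) and without control 1 (−0.13, adjusted p = 0.0447). NBN, which brings ATM to the break, rose by 0.13 in JJN3 (adjusted p = 0.0181). RBBP8, the partner that starts resection, rose by 0.12 there (adjusted p = 0.0281). Both of these calls rested on little: after quantile normalisation the difference was 0.06 for NBN (adjusted p = 0.276) and 0.07 for RBBP8 (adjusted p = 0.19), and neither held without some single libraries. NBN was not called without control 2, knockdown 1 or knockdown 2 (adjusted p = 0.102, 0.0912 and 0.0751). RBBP8 was not called without control 1, control 2 or knockdown 1 (adjusted p = 0.119, 0.073 and 0.109) or with no minimum mean (adjusted p = 0.0511). In INA6 NBN differed by 0.10 (adjusted p = 0.133) and RBBP8 by 0.10 (adjusted p = 0.117), and both were called after median centring (0.13 and 0.14) and without knockdown library 3 (0.15 and 0.14).

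In the BLM complex, which dissolves double Holliday junctions, the small subunit RMI2 fell in both lines while the BLM helicase and RMI1 were not called. RMI2 (chr16:11345459-11351760) stood at 9.53, 9.55 and 9.52 in the INA6 controls and at 9.15, 9.16 and 9.14 in the knockdown. In JJN3 it stood at 9.52, 9.46 and 9.62 in the controls and 9.24, 9.27 and 9.36 in the knockdown. No arms overlapped, and the fall of 0.38 in INA6 to 76.7% of control (SE 0.0476, adjusted p = 1.42e-06) was the largest fall among the 35 genes in that line, beside 0.39 for KANSL2. In JJN3 it fell by 0.25 to 84.3% (SE 0.0485, adjusted p = 9.33e-05). BLM differed by −0.03 (adjusted p = 0.688) and 0.08 (adjusted p = 0.206), and RMI1 by 0.08 (adjusted p = 0.207) and −0.00 (adjusted p = 0.975), in INA6 and JJN3.

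**Figure D2:**
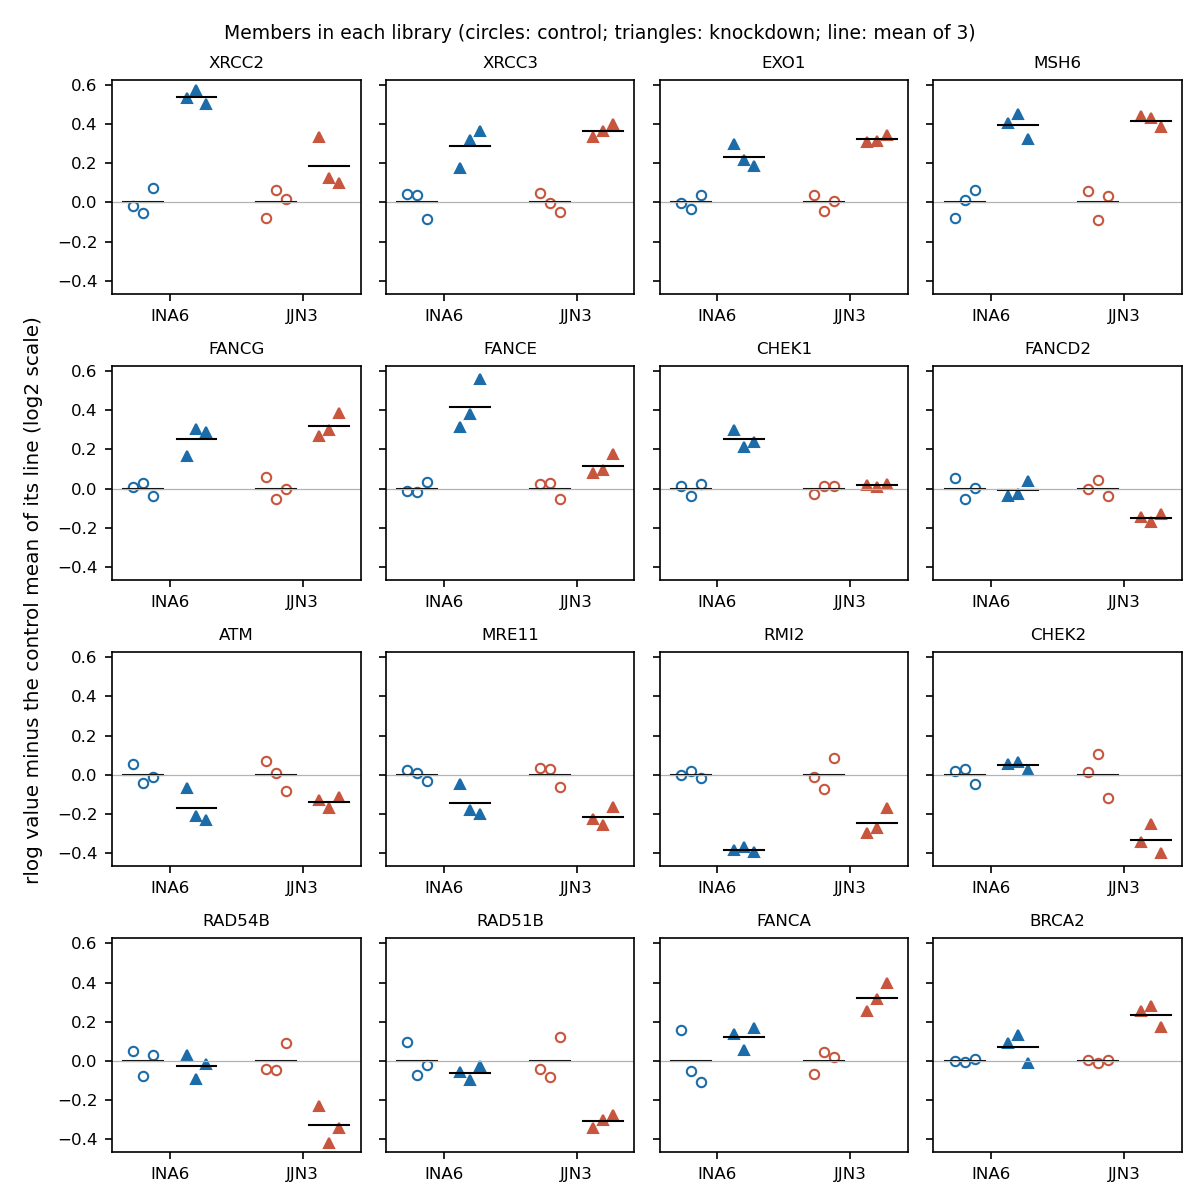
Deposited rlog value of 16 of the genes in each library after subtracting the control mean of its line (y axis, log2 scale; circles control, triangles knockdown, horizontal lines the means of 3), INA6 in blue and JJN3 in red. Knockdown and control points of XRCC3, EXO1, MSH6, FANCG and RMI2 are apart in both lines, whereas those of CHEK1 are apart in INA6 and mixed in JJN3.

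Of the 8 subunits of the Fanconi core complex, the ubiquitin ligase that marks FANCD2 and FANCI, 4 rose in INA6 (50.0%, beside 24.7% of all genes) and 2 in JJN3 (25.0%, beside 25.5%), and none fell. The median change over the 8 was 0.14 in INA6 and 0.09 in JJN3. FANCG (chr9:35073839-35079942), an adaptor subunit, stood at 9.18, 9.20 and 9.13 in the INA6 controls and 9.33, 9.47 and 9.46 in the knockdown, and at 7.50, 7.38 and 7.43 in the JJN3 controls and 7.71, 7.74 and 7.82 in the knockdown. The arms were apart in both lines, with rises of 0.25 (SE 0.052, 119%, adjusted p = 0.000413) and 0.32 (SE 0.0558, 125%, adjusted p = 2e-05). FANCE (chr6:35452338-35467102), the subunit that contacts FANCD2, stood at 8.57, 8.57 and 8.62 in the INA6 controls and 8.91, 8.97 and 9.15 in the knockdown. All 3 knockdown libraries were above the controls, a rise of 0.42 (SE 0.0597, 134%, adjusted p = 7.48e-06). In JJN3 FANCE stood at 7.80, 7.81 and 7.73 in the controls and 7.86, 7.87 and 7.95 in the knockdown, again apart but with a difference of 0.12 that missed the threshold (SE 0.0539, adjusted p = 0.074) and passed it after median centring (0.14, adjusted p = 0.0276), after quantile normalisation (0.15, adjusted p = 0.0258) and without the variance trend (0.12, adjusted p = 0.0469).

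FANCA (chr16:89737549-89816647), a core subunit that binds FANCG, stood at 7.08, 7.20 and 7.17 in the JJN3 controls and 7.40, 7.47 and 7.55 in the knockdown, a rise of 0.32 without overlap (SE 0.0576, 125%, adjusted p = 2.52e-05). In INA6 it stood at 8.36, 8.16 and 8.10 in the controls and 8.34, 8.26 and 8.38 in the knockdown. Control 1 lay among the knockdown libraries, and the difference of 0.12 (adjusted p = 0.133) became 0.20 without it (adjusted p = 0.0201) and 0.16 after median centring (adjusted p = 0.049). FANCA overlaps ZNF276 on the opposite strand by 3377 bases, and ZNF276 rose by 0.44 and 0.49. No source used here says whether counting used strand, so reads of the shared stretch cannot be told apart.

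Of the other core subunits in the set, FANCB and FANCC were called in INA6 and none in JJN3. FANCB, a partner of the ligase subunit FANCL, rose by 0.23 in INA6 (adjusted p = 0.00545), and its JJN3 difference was 0.09 (adjusted p = 0.212, and 0.15 with adjusted p = 0.0315 without control 1). FANCC, which joins FANCE and FANCF, was called higher in INA6 by 0.15 (adjusted p = 0.0375) although its arms overlapped. That call was lost with the replicate number in the model (adjusted p = 0.0532), with no minimum mean (adjusted p = 0.0609) and without control 2, control 3, knockdown 1 or knockdown 3 (adjusted p = 0.092, 0.218, 0.0855 and 0.0595). FANCC differed by 0.07 in JJN3 (adjusted p = 0.277). FANCF differed by 0.06 in INA6 (adjusted p = 0.322) and −0.08 in JJN3 (adjusted p = 0.124), FANCL by −0.04 (adjusted p = 0.612) and 0.09 (adjusted p = 0.182), and the translocase FANCM by 0.01 (adjusted p = 0.86) and 0.03 (adjusted p = 0.711). After quantile normalisation FANCF was called lower (−0.14, adjusted p = 0.00669) and FANCL higher (0.16, adjusted p = 0.0177) in JJN3.

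FANCD2 and FANCI, the clamp that the core complex marks with ubiquitin, did not rise in either line. FANCD2 (chr3:10026437-10101932) stood at 7.68, 7.73 and 7.65 in the JJN3 controls and at 7.54, 7.52 and 7.56 in the knockdown. The arms were apart, and the fall of 0.15 to 90.2% of control was called (SE 0.0538, adjusted p = 0.0223). It was not called after median centring (−0.12, adjusted p = 0.0595), after quantile normalisation (−0.10, adjusted p = 0.134), or without control 1, control 2 or knockdown 2 (adjusted p = 0.0501, 0.0943 and 0.0778). In INA6 FANCD2 stood at 8.67, 8.56 and 8.62 in the controls and 8.58, 8.59 and 8.66 in the knockdown, overlapping, with a difference of −0.01 (adjusted p = 0.918). FANCI differed by −0.03 in each line (adjusted p = 0.722 in INA6 and 0.655 in JJN3).

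The checkpoint kinases split between the ATM and ATR branches. ATM, the kinase of broken ends, fell in both lines, and ATR, the kinase of stalled forks, rose in both. ATM (chr11:108223067-108369102) stood at 10.52, 10.42 and 10.45 in the INA6 controls and 10.40, 10.25 and 10.23 in the knockdown, and at 10.28, 10.22 and 10.13 in the JJN3 controls and 10.08, 10.04 and 10.10 in the knockdown. The arms just separated in each, with falls of 0.17 to 88.9% of control (SE 0.0498, adjusted p = 0.00767) and 0.14 to 90.9% (SE 0.0444, adjusted p = 0.0103). Neither call held without control 1 of its line (−0.14 with adjusted p = 0.0534 in INA6, −0.10 with adjusted p = 0.0975 in JJN3), and in JJN3 it was also lost without knockdown 2 (adjusted p = 0.0624). ATR rose by 0.17 in INA6 (SE 0.061, adjusted p = 0.0232) and 0.19 in JJN3 (SE 0.0568, adjusted p = 0.00595). Its INA6 call was lost without control 1 (0.11, adjusted p = 0.166) or knockdown 2 (adjusted p = 0.0614), and its JJN3 call without knockdown 2 (0.14, adjusted p = 0.0798).

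The effector kinases differed between the lines. CHEK1 (chr11:125625136-125681124), which acts below ATR, stood at 10.31, 10.26 and 10.32 in the INA6 controls and 10.60, 10.51 and 10.54 in the knockdown, a rise of 0.25 without overlap (SE 0.045, 119%, adjusted p = 0.000103). In JJN3 it stood at 8.99, 9.03 and 9.03 in the controls and 9.03, 9.02 and 9.04 in the knockdown. Those arms lay on top of each other, with a difference of 0.02 (SE 0.0457, adjusted p = 0.764). CHEK2 (chr22:28687742-28741834), which acts below ATM, stood at 5.95, 6.04 and 5.82 in the JJN3 controls and 5.59, 5.69 and 5.53 in the knockdown, a fall of 0.33 without overlap to 79.4% (SE 0.059, adjusted p = 2.47e-05). In INA6 it stood at 7.28, 7.29 and 7.21 in the controls and 7.31, 7.32 and 7.29 in the knockdown, with overlap and a difference of 0.05 (adjusted p = 0.534). CHEK1 overlaps ACRV1 on the opposite strand by 9326 bases, and ACRV1 was 0.31 higher in INA6 and differed by −0.00 in JJN3. CHEK2 has 6 RefSeq pseudogenes, FANCD2 and RBBP8 have 2 each, and MRE11 and BRCA1 have 1 each, so reads may have been shared between copies, and their values are uncertain in that respect.

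MSH6 (chr2:47783145-47810101), which recognises base mismatches left by replication, rose in both lines. It stood at 10.69, 10.78 and 10.83 in the INA6 controls and 11.17, 11.22 and 11.09 in the knockdown, and at 9.53, 9.38 and 9.50 in the JJN3 controls and 9.91, 9.90 and 9.85 in the knockdown. The arms were far apart in each, with rises of 0.39 (SE 0.0477, 131%, adjusted p = 1e-06) and 0.42 (SE 0.0461, 134%, adjusted p = 1.09e-08), the latter the largest rise among the 35 in JJN3. The difference between these rises was 0.02 with a 95% interval of −0.11 to 0.16.

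Setting the lines side by side, 6 of the 35 changes differed between INA6 and JJN3 (17.1%, beside 30.0% of 11137 genes), and each was more negative in JJN3, as were 15.6% of all genes. CHEK2 differed by −0.38 (JJN3 change minus INA6 change, adjusted p = 0.000391), XRCC2 by −0.35 (adjusted p = 0.000151), RAD54B by −0.30 (adjusted p = 0.00611), FANCE by −0.30 (adjusted p = 0.00283), RAD51B by −0.25 (adjusted p = 0.0108) and CHEK1 by −0.23 (adjusted p = 0.00413). For RAD51B the difference was −0.19 without JJN3 control 3 (adjusted p = 0.0624). XRCC2 and FANCE were positive in both lines and larger in INA6, CHEK1 moved in INA6 alone by the calls, and CHEK2, RAD54B and RAD51B in JJN3 alone by the calls. FANCA was 0.20 more positive in JJN3 with a 95% interval of 0.03 to 0.38, which missed the adjusted threshold (adjusted p = 0.072). It passed after quantile normalisation (0.24, adjusted p = 0.038), without INA6 control 3 (0.26, adjusted p = 0.0313) and without JJN3 knockdown 1 (0.24, adjusted p = 0.039). Across the 35 genes the changes in the lines had a Pearson r of 0.66 with 26 of the same sign (74.3%), beside 0.49 and 7712 of the same sign (69.2%) across all 11137 genes. Genes are not independent replicates, and all points of a line share its 6 libraries.

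**Figure D3:**
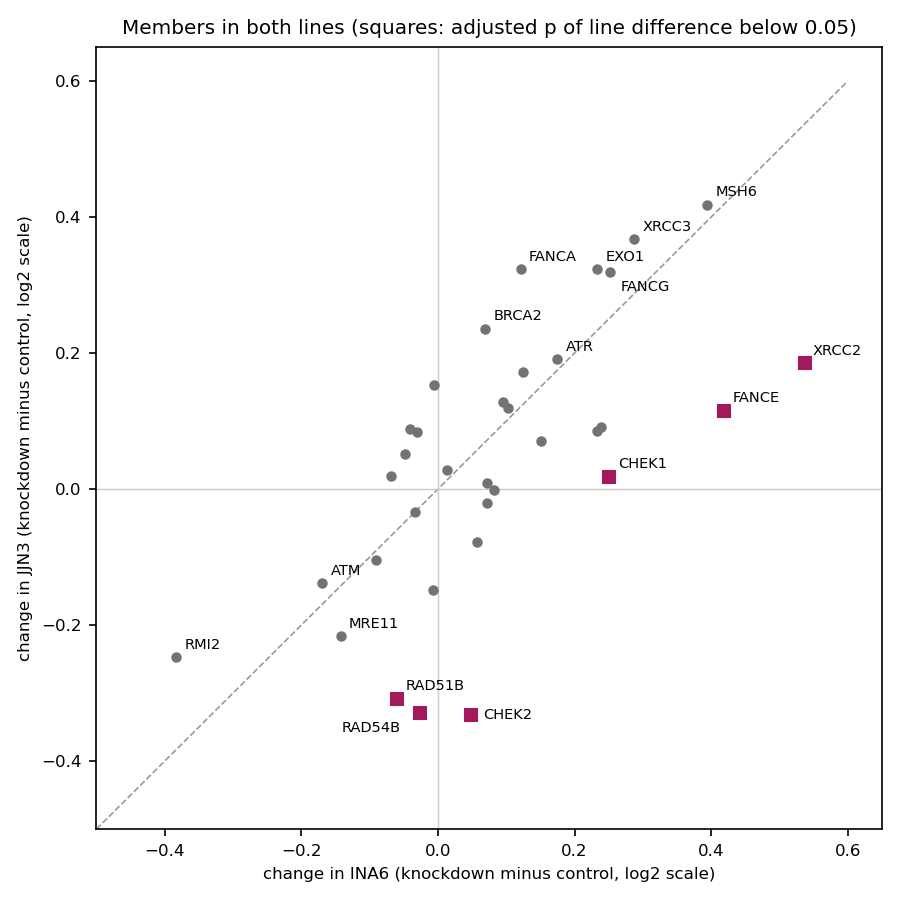
Change of each of the 35 genes in INA6 (x axis) and JJN3 (y axis), knockdown minus control on the log2 scale, with the line of equal change dashed. Squares mark the 6 genes whose changes differed between lines, all of which lie below the dashed line.

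Several of these genes start head to head with a neighbour, sharing a short stretch of promoter. A neighbour on the opposite strand that starts within 1000 bases was found for 14 genes, and 9 of these neighbours were tested in each line. Both genes of a pair were called in the same direction in 0 pairs in INA6 and 1 in JJN3, and in opposite directions in 2 and 1. The matching shares over all head-to-head pairs were not counted. Of all genes tested, 48.6% were called in INA6 and 51.0% in JJN3, in either direction. Whether the pairs named below differ from other head-to-head pairs was not tested. ATM and NPAT, a regulator of histone gene transcription, start 429 bases apart. While ATM fell, NPAT rose by 0.30 in INA6 (adjusted p = 0.000295) and 0.27 in JJN3 (adjusted p = 2.66e-05). FANCB and MOSPD2 start 352 bases apart, and MOSPD2 fell by 0.42 in INA6, where FANCB rose, and by 0.21 in JJN3. MRE11 and ANKRD49 start 140 bases apart, and ANKRD49 fell by 0.29 in JJN3 together with MRE11, with a difference of −0.08 in INA6 that was not called. NBR1, which starts 82 bases from the farthest upstream BRCA1 start, fell by 0.34 and 0.19 while BRCA1 was not called. Only the nearest neighbour of each gene was taken. BRCA1 also overlaps NBR2 on the opposite strand by 28115 bases. NBR2 was called lower in JJN3 (−0.33) and not in INA6 (−0.04). HNRNPK, 144 bases from RMI1, rose by 0.24 and 0.23 while RMI1 was not called. The partners of XRCC3 (ZFYVE21, −0.11 and −0.07), BARD1 (SNHG31, −0.03 and 0.01) and CHEK2 (HSCB, 0.08 and −0.14) were not called in either line. HSCB was called lower in JJN3, as CHEK2 was, with the replicate number in the model (adjusted p = 0.0345) and without control 1 (−0.18, adjusted p = 0.0182) or knockdown 2 (−0.19, adjusted p = 0.0179). ZFYVE21 was called lower in INA6 without knockdown 3 (−0.19, adjusted p = 0.0273). MRE11 also overlaps ANKRD49 by 5595 bases, ATM overlaps C11orf65 by 60584 and XRCC3 overlaps KLC1 by 3928, each on the opposite strand, so their values carry the same uncertainty as that of FANCA. The same holds for BRCA1 and for other members that overlap a gene. DCTN5, next to PALB2, was called in INA6 at 0.12 (adjusted p = 0.0418), a call lost under 7 of 13 alternatives, and differed by 0.04 in JJN3.

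**Figure D4:**
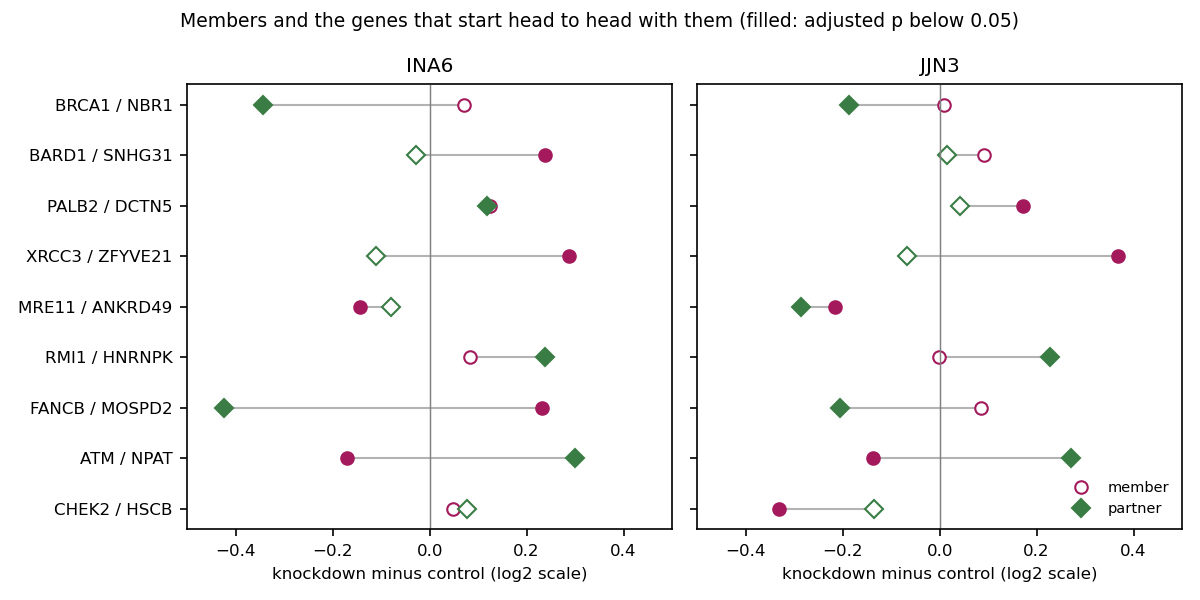
Change of 9 genes of the set (circles) and of the neighbour that starts head to head with each (diamonds) in INA6 and JJN3 (x axis, knockdown minus control, log2 scale; filled where called). The ATM and NPAT points lie on opposite sides of 0 in both lines, and the MRE11 and ANKRD49 points lie on the same side.

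The remaining genes of the same pathways were counted from lists that hold none of the 35. For comparison, 24.7% of all genes tested rose and 24.0% fell in INA6, and 25.5% rose and 25.5% fell in JJN3. Of 29 other homologous recombination genes tested in INA6 10 rose and 4 fell (34.5% and 13.8%). In JJN3 8 of 29 rose and 6 fell (27.6% and 20.7%), near the shares of all genes. TONSL, which protects stalled forks, rose by 0.51 and 0.39, RPA2, a subunit of the single-strand binding protein RPA, by 0.21 and 0.27, and BRCC3, a deubiquitinase of the BRCA1-A complex, by 0.23 and 0.26. RECQL5, a helicase that restrains recombination, fell by 0.30 in JJN3. Its fall of 0.15 in INA6 was called (adjusted p = 0.033) and lost under 6 of 13 alternatives, which were median centring, quantile normalisation, the replicate number in the model, and leaving out control 1, control 3 or knockdown 2 (adjusted p between 0.0625 and 0.126). Of the other Fanconi genes 4 of 16 rose and 2 fell in INA6 (25.0% and 12.5%), and 5 of 15 rose and 6 fell in JJN3 (33.3% and 40.0%). USP1, which removes ubiquitin from FANCD2, rose by 0.26 and 0.36, and FAAP20, a core complex partner of FANCA, fell by 0.29 and 0.42. Of the other checkpoint genes 13 of 21 rose and 1 fell in INA6 (61.9% and 4.76%), and 10 of 20 rose and 3 fell in JJN3 (50.0% and 15.0%). CLSPN, the adaptor through which ATR activates CHEK1, rose by 0.49 and 0.59, the phosphatase CDC25A by 0.53 and 0.41, and the kinase PKMYT1 by 0.31 and 0.44. WEE1 rose by 0.43 in INA6 and differed by 0.06 in JJN3, where it was not called, and TP53BP1, which limits resection, fell by 0.48 in JJN3 with −0.12 in INA6, not called. Over all other repair and checkpoint genes counted, end joining and mismatch repair included, 35 of 83 genes rose and 10 fell in INA6 (42.2% and 12.0%). In JJN3 27 of 81 rose and 18 fell (33.3% and 22.2%).

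End joining, the competing route of repair, was counted too. Of 11 end joining genes 7 rose and 0 fell in INA6 (63.6% higher, beside 24.7% of all genes). In JJN3 3 rose and 2 fell (27.3% and 18.2%, beside 25.5% and 25.5% of all genes). XRCC6 (Ku70) rose by 0.34 and 0.20 and PRKDC, the DNA-dependent kinase it recruits, by 0.33 and 0.21. The ligase LIG4 fell by 0.30 and its cofactor XRCC4 by 0.23 in JJN3, with −0.01 and −0.11 in INA6, neither called.

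Replication and G1/S genes, many of them E2F targets, were called in a single direction. Of 33 such genes 31 rose in INA6 (93.9%, beside 24.7% of all genes, median 0.29). In JJN3 27 rose (81.8%, beside 25.5%, median 0.32), and none fell in either line. The helicase subunit MCM4 rose by 0.56 in each line, MCM5 by 0.63 in INA6 and CDC6, which loads the helicase, by 0.80 in JJN3. The G2/M and mitosis list went apart between the lines. In INA6 12 of 25 were higher and 1 lower (48.0% and 4.00%, beside 24.7% and 24.0% of all genes, median 0.11). In JJN3 2 were higher and 8 lower (8.00% and 32.0%, beside 25.5% and 25.5%, median −0.08). For 12 of these 25 (48.0%, beside 30.0% of all genes) the changes differed between lines, each more negative in JJN3, as were 15.6% of all genes. PLK1, the mitotic kinase, rose by 0.39 in INA6 and fell by 0.21 in JJN3. The part of cell cycle distribution in the changes of the 35 genes was not tested.

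**Figure D5:**
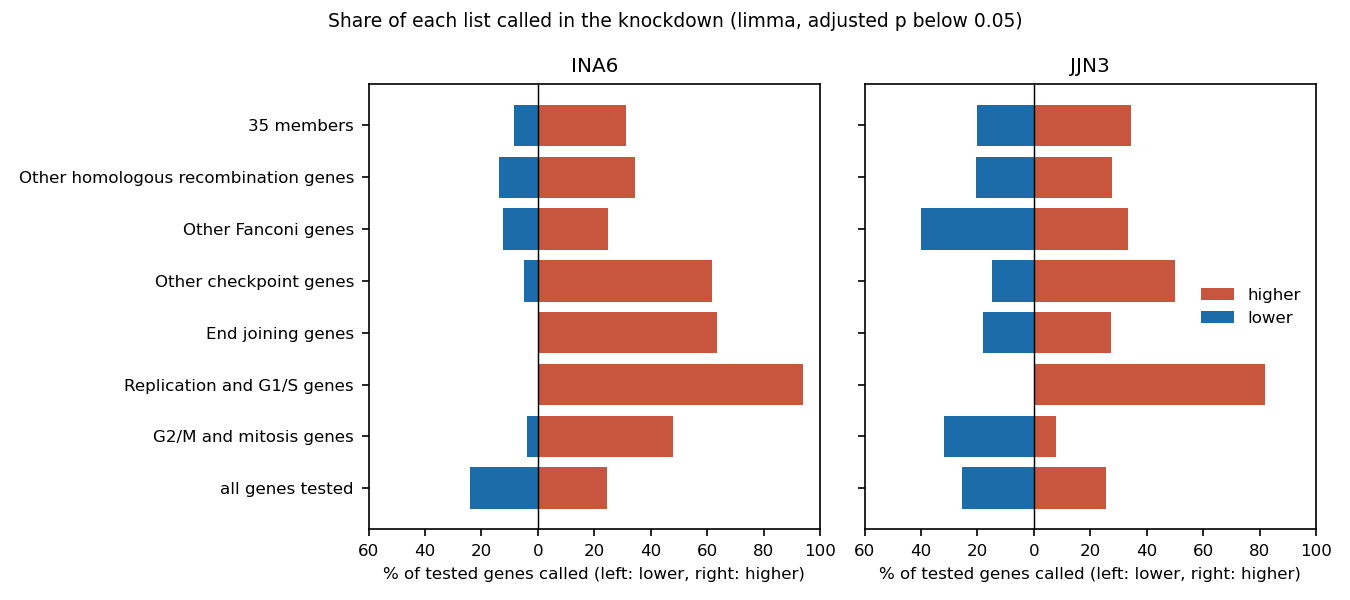
Share of tested genes called higher (red, to the right) and lower (blue, to the left) in each list and over all genes, in percent, for INA6 and JJN3. The replication list reaches far to the right in both panels with no lower call, while the bar of the 35 genes extends to 31.4% and 34.3% on the right and to 8.57% and 20.0% on the left.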

How the data were processed

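RNA was measured in 12 libraries, 3 knockdown and 3 non-targeting in each of 2 lines, grouped by title; 4 chromatin accessibility libraries were not analysed here. Random hexamers primed cDNA from poly(A) RNA, per the labels' protocols. The tools DESeq2, HTSeq, Bowtie2 and Trim Galore and the build hg38 are named in the submitters' processing notes; versions and annotation are not given in the sources used here. The authors deposited rlog values on the log2 scale, 28277 symbols per line, each line normalised separately, so levels were not compared between lines. The tables hold no counts, so depth per library is unknown.

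Genes with a mean of at least 3 were tested per line with limma 3.58.1 in R 4.3.3 (lmFit, eBayes with a mean-variance trend, no block, 3 against 3), with two-sided Benjamini-Hochberg adjusted p below 0.05 as the call. The code was tested on simulated data. With 3 against 3 the smallest exact permutation p is 0.1, so that test was not used. Changes of the lines were compared by dividing the gap between the within-line differences by its standard error from both fits (summed degrees of freedom), adjusted over 11137 genes. The 35 genes and all lists were chosen with earlier results of these data known. Values in every library are given for KANSL2, genes that differed between lines, and the 6 largest called rises and falls per line; from other lists up to 4 genes with the smallest p per line could be named. ZNF276, ACRV1 and NBR2 are named for their overlaps, and RBL1, E2F4, E2F6, E2F7 and E2F8 as relatives of named genes. Gene positions and promoter windows come from RefSeq (GRCh38.p14); head-to-head neighbours were read from the promoter table, which gives strand. Alternatives were median centring, quantile normalisation, a replicate block, no minimum mean or a minimum of 5, 2 other variance models, and leaving out each library. Some items of these pathways are not reported here.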

Additional observations from a re-analysis of the deposited data

Results flagged for a closer look

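The changes of 6 of the 35 genes differed between the lines by the test of the difference itself (JJN3 change minus INA6 change, log2 scale): CHEK2 by −0.38, XRCC2 by −0.35, RAD54B by −0.30, FANCE by −0.30, RAD51B by −0.25 and CHEK1 by −0.23. KANSL2 itself differed by −0.82, having fallen further in JJN3. For CHEK2, RAD54B and RAD51B the arms were apart in JJN3 and overlapped in INA6, for CHEK1 the reverse held, and for XRCC2 and FANCE the arms were apart in both lines. The depth of knockdown and the line cannot be told apart in these values.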

How the results depend on the processing

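Of the 14 member calls in INA6 10 passed under every alternative, of the 19 in JJN3 12 did, and of the 6 differences between lines 5 did; 4, 6 and 2 uncalled values passed under at least 1 alternative, and no called value changed sign. Leaving out 1 library at a time gave 10 to 13 higher and 1 to 3 lower members in INA6, 8 to 12 higher and 5 to 7 lower in JJN3, and 5 to 7 differences between lines. The lowest of these in INA6 came without control replicate 1, with 1 member lower in place of 3, RMI2. With the replicate block the counts were 10 higher and 3 lower in INA6, 12 and 7 in JJN3, and 6 between lines; FANCC in INA6 lost its call. Deviations of libraries with the same number correlated at −0.18, −0.07 and −0.30 in INA6 and 0.00, −0.01 and 0.00 in JJN3. Among libraries of different numbers the value reached 0.24 in INA6 (control 3 with knockdown 1). Deviations from a mean of 3 libraries are tied to each other, so these values cannot settle whether the numbers pair the libraries. KANSL2 was lower in every alternative, between −0.42 and −0.34 without single INA6 libraries and between −1.24 and −1.20 without single JJN3 libraries. Depth is unknown, the rlog shrinks genes with low values such as RAD51B, and with differences of 0.10 to 0.20 the calls of MRE11 and FANCC in INA6, ATM and ATR in both lines, and XRCC2, FANCD2, NBN, RBBP8 and RAD54L in JJN3 turned on single libraries.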

Other observations

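Most of the regulators that govern E2F target genes were called higher, and a few lower. Of 16 E2F and DREAM regulators 11 rose and 1 fell in INA6 (68.8% and 6.25%, beside 24.7% and 24.0% of all genes, median 0.21). In JJN3 11 rose and 3 fell (68.8% and 18.8%, beside 25.5% and 25.5%, median 0.19). The activator E2F2 rose by 0.36 in INA6 and 0.46 in JJN3, E2F1 by 0.29 and 0.51, and E2F3 by 0.49 and 0.24. MYBL2, which switches the DREAM complex to an activator, rose by 0.38 and 0.21. RBL2 (p130), a pocket protein of the repressive DREAM complex, fell by 0.52 and 0.47. Its relative RBL1 (p107) rose by 0.25 and 0.38. E2F4, E2F6, E2F7 and E2F8 were also called higher in both lines. RB1 fell by 0.38 in JJN3, and its INA6 difference of 0.09 was not called. The list was chosen with earlier results of these data known. It shares E2F1 and E2F2 with the replication and G1/S list, so their rises are counted in both lists.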
